A study of Mus musculus with 6 samples.

Results

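The enzymes of the tricarboxylic acid (TCA) cycle, of pyruvate entry and of the NADH shuttles were described in the livers of ETOH-WT mice compared to PF-WT mice. They are 34 genes chosen by name, with earlier results of these data known. First come 13 enzymes and subunits of the cycle, the cytosolic aconitase and 4 subunits of the pyruvate dehydrogenase complex. Next are 3 kinases and 3 phosphatase subunits that control this complex, the 2 mitochondrial pyruvate carrier subunits and the mitochondrial PEP carboxykinase. Last are 3 lactate dehydrogenases, 3 shuttle enzymes and the transhydrogenase. All 34 have a row among the 13273 protein-coding genes of the table. Both groups were wild type female C57Bl/6 mice, 2 months old at the start, with 1 liver library per mouse and 3 mice per diet. The ETOH-WT mice were fed the Lieber–DeCarli liquid diet for 3 weeks. After 3 days of acclimatization on control diet, ETOH was added and raised in steps up to 6.4% v/v. The PF-WT mice were pair-fed for those 3 weeks with control diet of equal calories. The model covers early alcohol-associated liver disease, and each value comes from whole liver tissue with all its cell types.

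The TCA cycle burns acetyl-CoA in the mitochondrial matrix and hands the electrons to NADH and succinate dehydrogenase. Pyruvate enters the matrix through a carrier and becomes acetyl-CoA in the pyruvate dehydrogenase complex, which kinases turn off and phosphatases turn on. In hepatocytes the oxidation of ethanol to acetate makes NADH in the cytosol and in the mitochondria. Cytosolic NADH cannot cross the inner mitochondrial membrane, so the malate-aspartate and glycerol phosphate shuttles carry its electrons inward, and lactate dehydrogenase can pass them to pyruvate.

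Of the 5 members that passed the test below, Idh2, Pck2 and Cs have a promoter sequence in the RefSeq table (GRCm38.p6), which holds 30 of the 34 members. The 250 bases before the RefSeq start of these 3 genes are shown because their mRNAs differed between the diets, in lower case with matches to searched motifs in capitals. These starts differ from the gene positions given below for Idh2, where the region reaches into the gene, and for Cs, where it ends short of it. The regions are chr7:80115351-80115600 on the minus strand for Idh2, chr14:55540016-55540265 on the plus strand for Pck2 and chr10:128337477-128337726 on the plus strand for Cs.
Idh2: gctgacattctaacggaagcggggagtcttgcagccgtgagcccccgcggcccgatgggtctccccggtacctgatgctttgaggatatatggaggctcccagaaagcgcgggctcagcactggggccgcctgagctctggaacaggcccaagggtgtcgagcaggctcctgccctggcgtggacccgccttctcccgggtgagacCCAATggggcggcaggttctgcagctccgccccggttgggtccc
Pck2: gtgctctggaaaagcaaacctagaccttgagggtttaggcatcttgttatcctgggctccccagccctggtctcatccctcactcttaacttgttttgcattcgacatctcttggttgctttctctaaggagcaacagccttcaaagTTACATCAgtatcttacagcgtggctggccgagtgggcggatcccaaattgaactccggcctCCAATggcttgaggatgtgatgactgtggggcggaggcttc
Cs: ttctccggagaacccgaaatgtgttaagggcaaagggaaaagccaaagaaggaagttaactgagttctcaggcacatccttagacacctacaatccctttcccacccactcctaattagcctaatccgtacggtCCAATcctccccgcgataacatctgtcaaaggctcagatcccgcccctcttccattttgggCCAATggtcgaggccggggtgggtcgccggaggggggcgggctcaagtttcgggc
Both strands were searched for TGATGNAA (an element bound by ATF4 with C/EBP factors), AAGGTCA (a core site of estrogen-related receptors), CACGTG (E-box), CCAAT and the palindromic NRF1 site. Some genes have several promoter entries (40 for the 30 members), and a gene was counted where any of its entries matched. CCAAT was found in 17 of the 30 members, including all 3 shown, and in 37.5% of the 27025 genes of the table. By entry it was found in 20 of the members' 40 and in 33.8% of all 32851. TGATGNAA was found in 1 of the 30 members (3.33%), Pck2, and in 3.91% of all genes. In Pck2 it lies on the minus strand, 103 bases before the start at its far end. E-boxes were found in Ldha, Ldhd, Ogdh, Pdk2, Pdp2 and Pdpr, 6 of 30 (6.86% of all genes). No member had AAGGTCA or the NRF1 site, against 4.7% and 0.877% of all genes. A match describes these letters and does not show binding.

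The deposited values were read as FPKM, which divides fragments by the length of the transcript and the depth of the library, so levels can be set side by side between genes. Their sum per library was 570652 to 625003 in ETOH-WT and 567808 to 577297 in PF-WT livers, which does not give the depth. The depth is unknown, since a search for steps of single fragments among low values fitted no library well (mean cosine 0.242 to 0.326, where 1 is a perfect fit). The 34 members held 0.538% to 0.596% of the summed FPKM in ETOH-WT and 0.547% to 0.578% in PF-WT livers. The hepatocyte markers Alb, Apoa1, Ttr, Cps1, Serpina1a and Cyp2e1 were abundant in every liver. Their summed FPKM was 65500 to 71108 in ETOH-WT against 73188 to 82924 in PF-WT livers, without overlap, a sum made up mostly of Alb. None of the 6 passed the test, Alb and Ttr were the ones without overlap, and Serpina1a and Cyp2e1 were higher on average in ETOH-WT livers (log2 fold changes 0.20 and 0.19). The 5 erythroid markers summed to 159 to 242 FPKM in ETOH-WT and 212 to 284 FPKM in PF-WT livers, with overlap. All 5 were lower on average in ETOH-WT livers, Hbb-bt and Alas2 without overlap, but none passed the test (Alas2 adjusted p = 0.0538). The 3 cholangiocyte markers above the minimum were also all lower on average in ETOH-WT livers, with none past the test. The cholangiocyte list summed to 21.7 to 29.2 FPKM in ETOH-WT and 31.8 to 38.8 FPKM in PF-WT livers, without overlap. This sum is made up mostly of Spp1 (20.1 to 27.2 FPKM in ETOH-WT and 29.4 to 35.6 FPKM in PF-WT livers). Krt7, below the minimum, did not overlap either, whereas Krt19, Epcam and Sox9 overlapped. The neutrophil list was higher on average, at 13.5 to 21.3 FPKM in ETOH-WT and 6.88 to 17.1 FPKM in PF-WT livers with overlap, and its 2 tested genes S100a8 and S100a9 did not pass (log2 fold changes 0.58 and 0.68). The sums of the Kupffer cell, sinusoidal endothelial, stellate and lymphocyte lists overlapped. Of 35 tested markers of liver and other cell types, 1 was called, Cela1 of the pancreas list (lower, adjusted p = 0.0167). The other pancreas genes listed, Prss1, Cpa1 and Amy2a5, have no row among the deposited values. Log2 fold changes were negative in 27 of the 35 markers and positive in 8, with a median of -0.22, against 0.02 over all genes. In whole tissue, fewer cells of a type and less RNA per cell cannot be told apart, and the part of these markers in the results below was not tested.

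Each gene averaging 0.5 FPKM or more over the 6 livers entered a limma fit of log2(FPKM + 1), 11346 in all, and a gene was called at a Benjamini-Hochberg adjusted p under 0.05 over all of them. Of the 33 members tested, 4 were higher (Idh2, Gpd1, Nnt and Pck2), 1 was lower (Cs) and 28 did not pass in ETOH-WT compared to PF-WT livers. The called members made up 15.2% of those tested, against 6.64% of all genes tested (3.97% higher and 2.67% lower). These shares compare unlike levels, since most members averaged 10 FPKM or more, and the members were chosen with earlier results of these data known. At a minimum of 2 FPKM, 7.94% of all genes were called. The median log2 fold change was 0.02 over the members and 0.02 over all genes, and the median size of the change without its sign was 0.15 in both. In 13 of the 33 members (39.4%) the 3 ETOH-WT values did not overlap the 3 PF-WT values, with 10 higher and 3 lower, against 29.1% of all genes (17.9% higher and 11.2% lower). At an unadjusted p under 0.05 there were 12 members (8 higher and 4 lower), against 23.7% of all genes. Pdk3, at 0.430 to 0.499 FPKM in ETOH-WT and 0.147 to 0.619 FPKM in PF-WT livers, was below the minimum and was not tested.

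**Figure D1:**
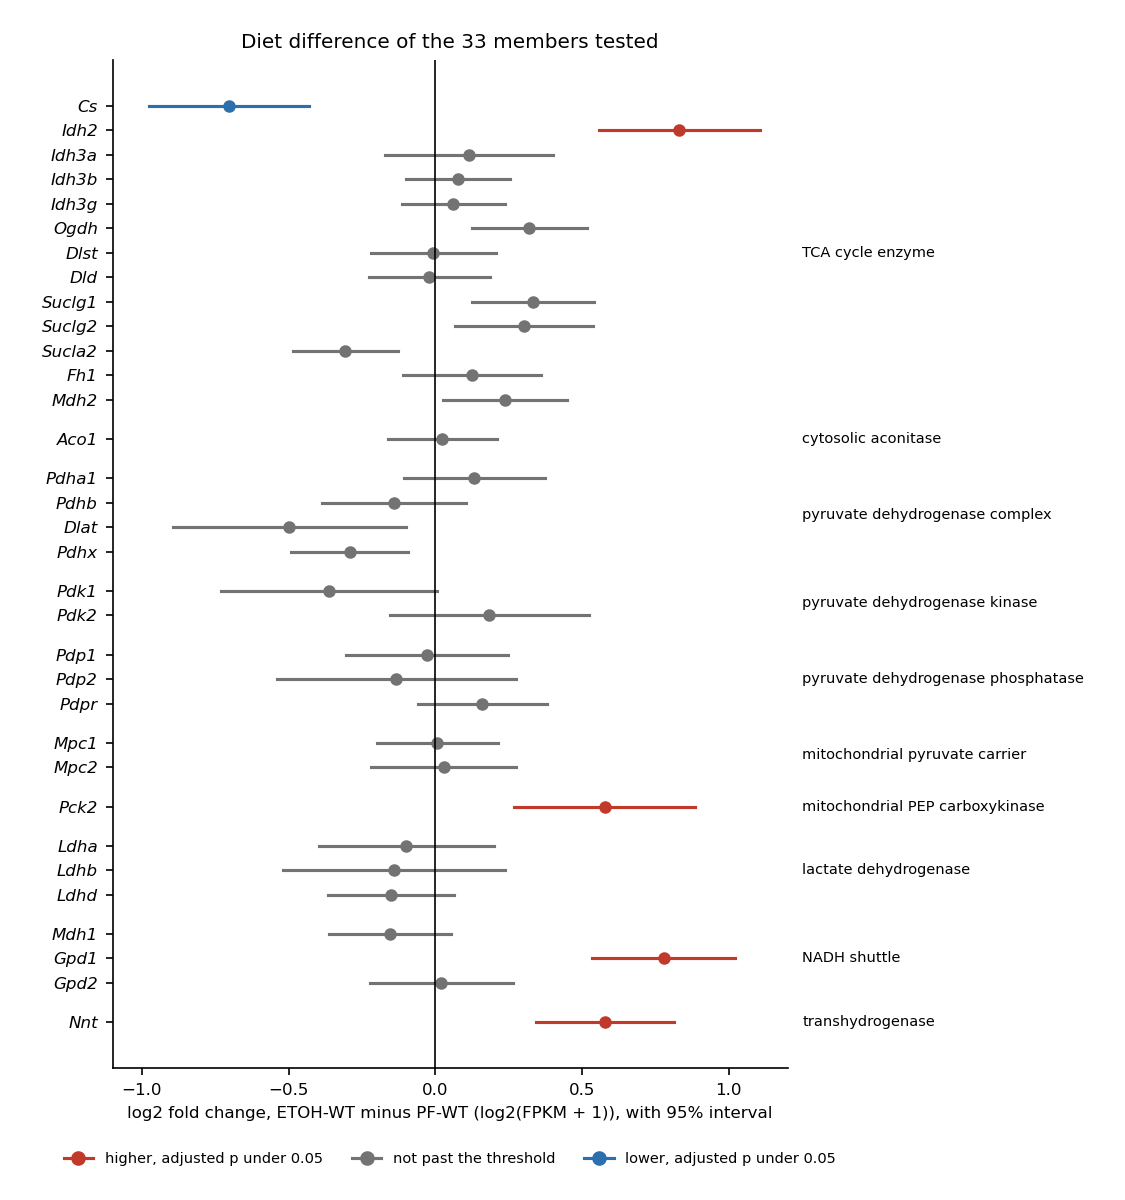
Log2 fold change of the 33 members tested (x axis, ETOH-WT minus PF-WT on the log2(FPKM + 1) scale) with its 95% interval from limma, ordered by role down the page. Points in red (Idh2, Pck2, Gpd1 and Nnt) and blue (Cs) passed the adjusted threshold, and the 28 gray ones did not.

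The members differed more in level among themselves than between the diets. Ldha was the most abundant at 470 ± 66.7 FPKM in ETOH-WT and 501 ± 43.1 FPKM in PF-WT livers (SD, n = 3 mice each), with Mdh1 and Mpc2 next and in a different order in each diet. Averaged over the 6 livers, 10 members lay at or above 100 FPKM, 18 between 10 and 100, 4 between 1 and 10, and 2 (Pdp1 and Pdk3) below 1.

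**Figure D2:**
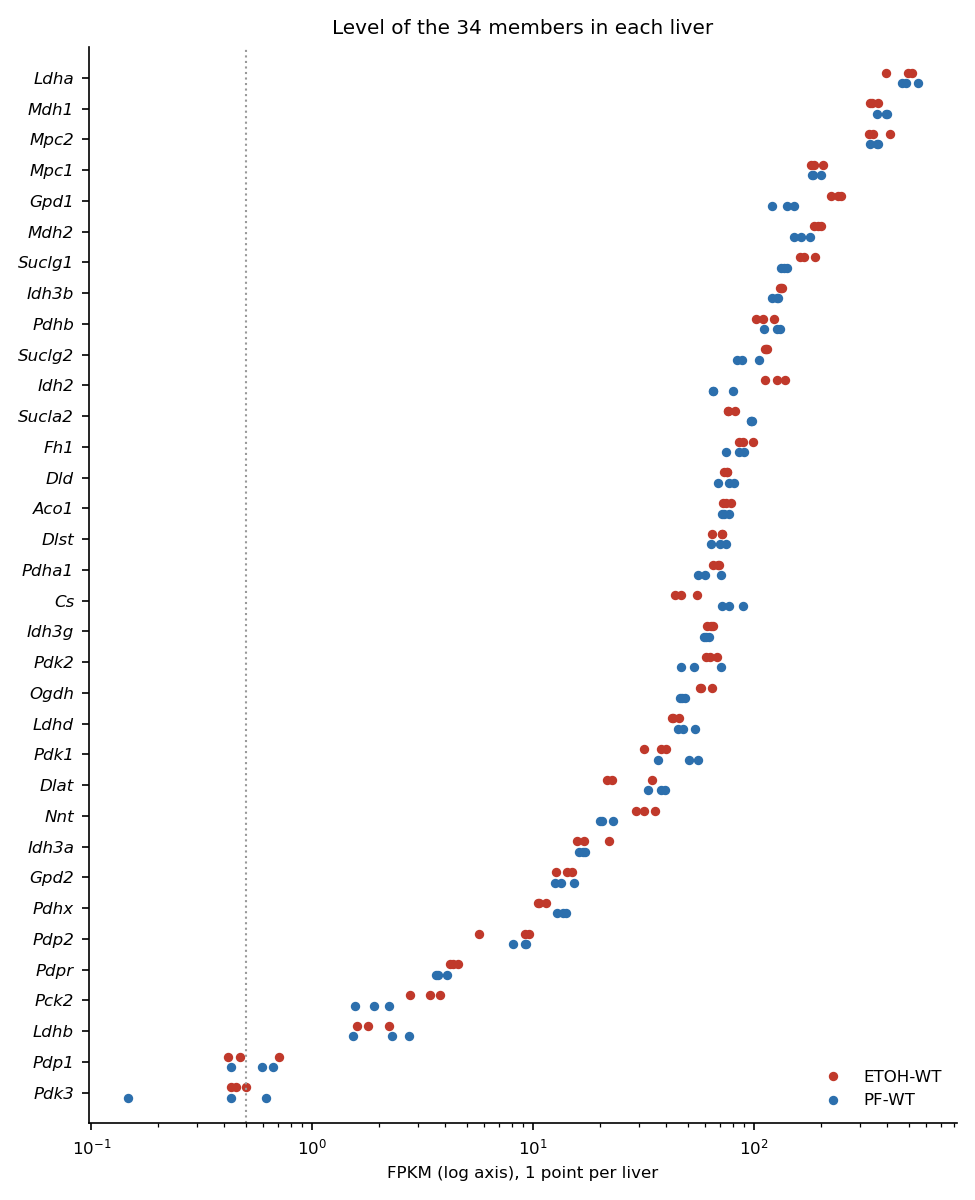
FPKM of the 34 members in each liver (x axis, log scale), ordered by their mean, with ETOH-WT livers in red above PF-WT livers in blue. Levels run from Pdk3 near the minimum of 0.5 FPKM (dotted line) to Ldha at the top. The groups do not overlap in 13 of the 33 members tested (39.4%), against 29.1% of all genes.

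Cs, the citrate synthase that opens the cycle (ENSMUSG00000005683, chromosome 10 of GRCm38, 128337832 to 128362479), had 43.8, 54.9 and 46.4 FPKM in ETOH-WT livers, against 71.9, 77.0 and 89.2 FPKM in PF-WT livers. The lowest PF-WT liver was above the highest ETOH-WT liver, and the log2 fold change was -0.70 (SE 0.12, adjusted p = 0.0167). Idh2, the mitochondrial isocitrate dehydrogenase that makes NADPH (ENSMUSG00000030541, chromosome 7, 80094846 to 80115392), had 138, 111 and 127 FPKM in ETOH-WT livers, against 65.0, 65.3 and 80.2 FPKM in PF-WT livers. Every ETOH-WT liver was higher than every PF-WT liver, with a log2 fold change of 0.83 (SE 0.12, adjusted p = 0.0103). Without ETOH-WT mouse 3 or PF-WT mouse 2, Cs had an adjusted p of 0.0732 or 0.0684, and without PF-WT mouse 2 Idh2 had 0.0523.

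Idh3a, Idh3b and Idh3g encode the subunits of the NADH-making isocitrate dehydrogenase of the cycle, and none passed the test. Idh3b, at 132 ± 1.44 FPKM in ETOH-WT and 125 ± 4.24 FPKM in PF-WT livers, was the most abundant subunit, above Idh3g (63.4 ± 1.88 and 60.8 ± 1.44 FPKM). Idh3a, the catalytic subunit, was the lowest in every liver at 18.2 ± 3.24 FPKM in ETOH-WT and 16.6 ± 0.542 FPKM in PF-WT livers. The 95% intervals of their log2 fold changes were -0.17 to 0.40 for Idh3a, -0.10 to 0.25 for Idh3b and -0.11 to 0.24 for Idh3g.

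Ogdh, the first subunit of the 2-oxoglutarate dehydrogenase complex, had 64.4, 56.6 and 57.4 FPKM in ETOH-WT livers, against 47.3, 48.7 and 46.1 FPKM in PF-WT livers. The groups did not overlap, but Ogdh did not pass (0.32 ± 0.08 SE on the log2 scale, adjusted p = 0.0635). The other subunits of the complex were nearly level between the diets. Dlst, which carries the lipoyl arm, was at 69.2 ± 3.91 FPKM in ETOH-WT and 69.6 ± 5.56 FPKM in PF-WT livers (95% interval of the log2 fold change -0.22 to 0.21). Dld, the dehydrogenase shared with the pyruvate dehydrogenase complex, was at 74.4 ± 1.24 and 75.6 ± 6.67 FPKM in ETOH-WT and PF-WT livers (95% interval -0.23 to 0.19).

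The succinyl-CoA ligase pairs a common subunit, Suclg1, with Suclg2 in its GTP-forming or with Sucla2 in its ATP-forming version. Suclg1 had 169, 189 and 161 FPKM in ETOH-WT livers, against 133, 137 and 140.2 FPKM in PF-WT livers (0.33 ± 0.09 SE on the log2 scale, adjusted p = 0.0670). Suclg2 had 114, 115 and 112 FPKM in ETOH-WT livers, against 83.8, 87.9 and 105 FPKM in PF-WT livers (0.30 ± 0.10 SE on the log2 scale, adjusted p = 0.122). Sucla2 had 75.8, 82.3 and 76.4 FPKM in ETOH-WT livers, against 96.5, 96.4 and 97.6 FPKM in PF-WT livers. None of the 3 genes passed, although in each the groups did not overlap, with Sucla2 on the lower side in ETOH-WT livers and the others on the higher side. The log2 fold change of Sucla2 was -0.31 (SE 0.08, adjusted p = 0.0560), and it passed without ETOH-WT mouse 2 (0.0494).

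Fh1, the fumarase, was at 90.9 ± 7.34 FPKM in ETOH-WT and 83.4 ± 7.68 FPKM in PF-WT livers (adjusted p = 0.507). Mdh2, the malate dehydrogenase of the matrix, was at 194 ± 7.59 and 165 ± 13.2 FPKM in ETOH-WT and PF-WT livers and did not pass (adjusted p = 0.166), although its groups did not overlap. Aco1, the cytosolic aconitase that also binds iron-responsive elements in mRNAs, was at 75.0 ± 3.33 and 73.7 ± 2.83 FPKM (95% interval of the log2 fold change -0.16 to 0.21). Thus 1 of the 13 cycle members rose, 1 fell and 11 did not pass, so that 15.4% were called against 6.64% of all genes. The groups did not overlap in 6 on the higher and 2 on the lower side, 61.5% of the 13 against 29.1% of all genes.

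**Figure D3:**
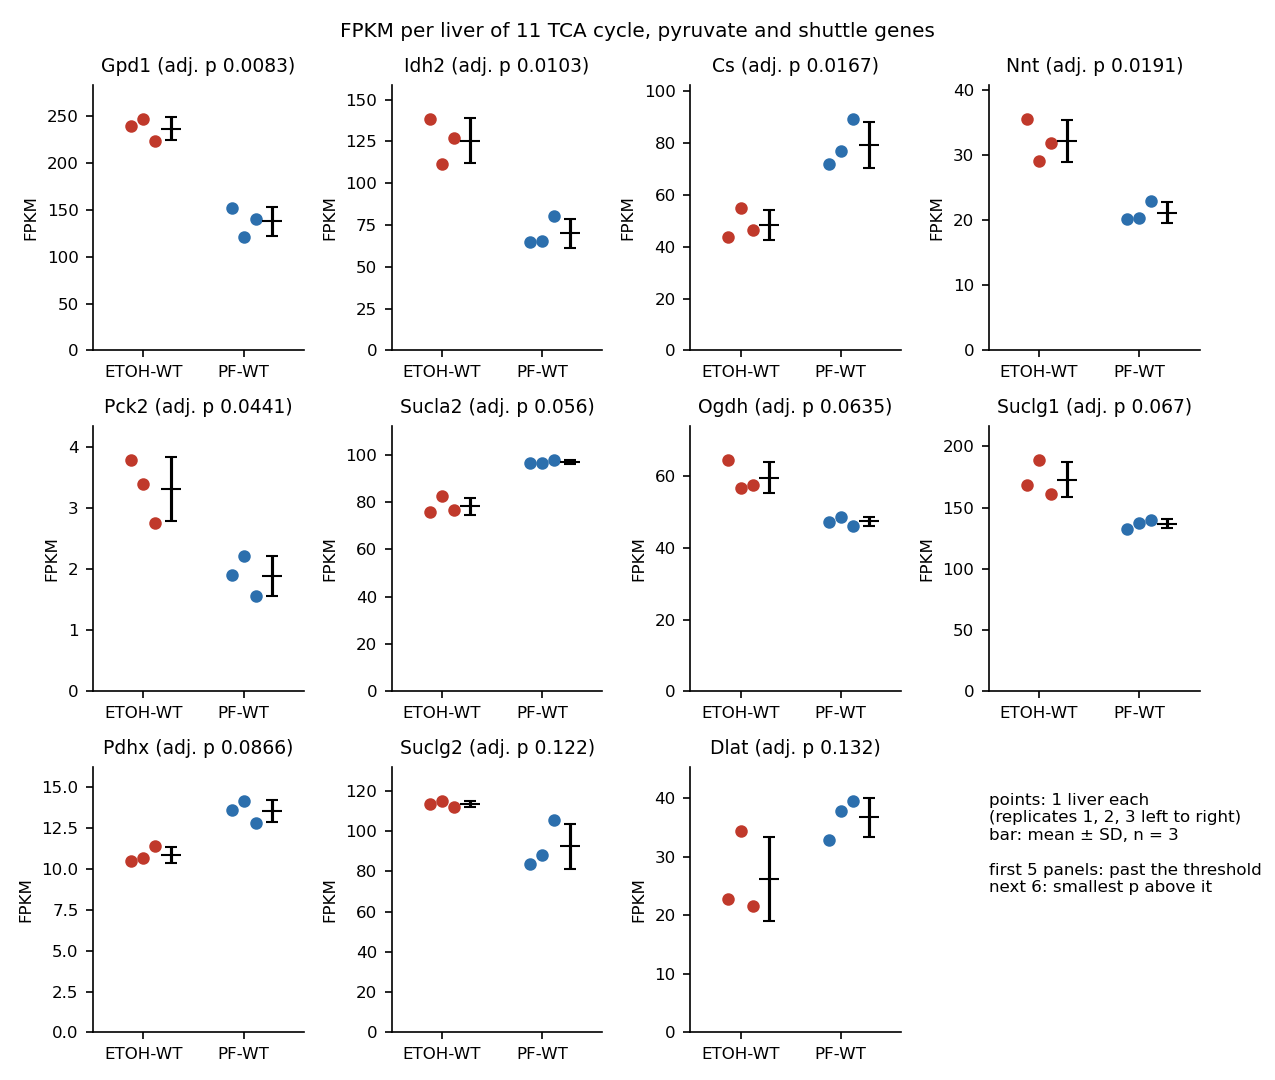
FPKM in each liver (y axis from 0) of the 5 members past the threshold and of the 6 others with the smallest p, with ETOH-WT livers in red on the left and PF-WT livers in blue on the right. Bars give the mean and SD of 3 mice. In each panel except Dlat the ETOH-WT and PF-WT livers do not overlap, which follows largely from choosing the panels by p. Among all genes tested, 29.1% do not overlap.

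None of the 4 subunit genes of the pyruvate dehydrogenase complex passed the test. Pdhx, which anchors the Dld subunit to the core, had 10.5, 10.7 and 11.4 FPKM in ETOH-WT livers, against 13.6, 14.1 and 12.8 FPKM in PF-WT livers (-0.29 ± 0.09 SE on the log2 scale, adjusted p = 0.0866). Dlat, the acetyltransferase core, had 22.7, 34.5 and 21.5 FPKM in ETOH-WT livers, against 32.97, 37.8 and 39.5 FPKM in PF-WT livers (-0.50 ± 0.17 SE on the log2 scale, adjusted p = 0.132). The groups were apart for Pdhx, whereas for Dlat ETOH-WT mouse 2 lay within the PF-WT range. Without that mouse Dlat passed, with a log2 fold change of -0.70 and an adjusted p of 0.0162. The subunits of the decarboxylase did not pass either, with Pdha1 at 67.8 ± 2.55 and 62.0 ± 7.73 FPKM and Pdhb at 111 ± 10.7 and 123 ± 10.95 FPKM in ETOH-WT and PF-WT livers (adjusted p = 0.485 and 0.472).

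The kinases and phosphatases that switch the complex did not pass the test. Pdk2, the main kinase by level, was at 63.8 ± 3.49 FPKM in ETOH-WT and 56.8 ± 12.5 FPKM in PF-WT livers (adjusted p = 0.492). Pdk1 was at 36.5 ± 4.17 and 47.7 ± 9.77 FPKM in ETOH-WT and PF-WT livers (log2 fold change -0.36, 95% interval -0.73 to 0.01, adjusted p = 0.220). Pdp2 exceeded Pdp1 among the phosphatase catalytic subunits, at 8.15 ± 2.17 and 8.84 ± 0.639 FPKM in ETOH-WT and PF-WT livers, whereas Pdp1 was at 0.532 ± 0.154 and 0.561 ± 0.120 FPKM. Pdpr, their regulatory subunit, was at 4.36 ± 0.193 and 3.80 ± 0.236 FPKM (adjusted p = 0.349), without overlap.

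The pyruvate carrier genes Mpc1 and Mpc2 were nearly level between the diets. Mpc1 was at 191 ± 12.2 FPKM in ETOH-WT and 189.8 ± 9.77 FPKM in PF-WT livers (95% interval of the log2 fold change -0.20 to 0.21). Mpc2 was at 361 ± 42.5 and 353 ± 15.02 FPKM (95% interval -0.22 to 0.28). None of the lactate dehydrogenases passed. Next to the Ldha values above (adjusted p = 0.694), Ldhb, the heart type subunit, was at 1.87 ± 0.326 FPKM in ETOH-WT and 2.19 ± 0.621 FPKM in PF-WT livers (adjusted p = 0.654). Ldhd, a mitochondrial enzyme that oxidizes D-lactate, was at 43.8 ± 1.78 and 48.9 ± 4.69 FPKM (adjusted p = 0.374). In the annotation, 42.2% of the exonic bases of Ldhd overlap Znrf1 on the opposite strand, and Mpc1 and Pdha1 overlap an opposite-strand gene in 23.1% and 16.1% of theirs. Whether the counting used strand is not stated, and without it reads of such pairs cannot be told apart. Ldha has 2 annotated pseudogenes that bear its name and Mpc1 has 1, so reads could be split there.

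Pck2, the mitochondrial enzyme that turns oxaloacetate into phosphoenolpyruvate (ENSMUSG00000040618, chromosome 14, 55540266 to 55550017), was low in all livers and rose in ETOH-WT livers. It had 3.79, 3.40 and 2.76 FPKM in ETOH-WT livers, against 1.90, 2.22 and 1.55 FPKM in PF-WT livers, without overlap. Its ratio of means was 1.75, and its log2 fold change of 0.58 (SE 0.13, adjusted p = 0.0441) understates this, since the pseudocount of 1 weighs on low values. This call was the weakest of the 5, as leaving out any 1 of the 6 livers gave an adjusted p of 0.0728 to 0.106. Its promoter is the one with the TGATGNAA match shown above, found in 3.33% of members with a promoter and 3.91% of all genes. The part of this match in the rise was not tested.

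Among the shuttle enzymes, Gpd1 rose in ETOH-WT livers and the others did not pass. Gpd1, the cytosolic glycerol-3-phosphate dehydrogenase that uses NADH to reduce dihydroxyacetone phosphate (ENSMUSG00000023019, chromosome 15, 99717515 to 99725005), had 239, 247 and 223 FPKM in ETOH-WT livers, against 152, 121 and 140.5 FPKM in PF-WT livers. All ETOH-WT livers exceeded all PF-WT livers, with a log2 fold change of 0.78 (SE 0.11, adjusted p = 0.00830). Gpd1 also passed under each of the 15 processing alternatives, with an adjusted p of 0.00132 to 0.0407. In the annotation, 13.0% of the exonic bases of Gpd1 overlap the antisense gene Gm16537. Gpd2, the mitochondrial partner that completes this shuttle, was at 13.9 ± 1.14 FPKM in ETOH-WT and 13.7 ± 1.39 FPKM in PF-WT livers (95% interval of the log2 fold change -0.22 to 0.26). Mdh1, the cytosolic malate dehydrogenase of the malate-aspartate shuttle, was at 346 ± 14.9 and 385 ± 20.9 FPKM in ETOH-WT and PF-WT livers (adjusted p = 0.340).

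Nnt, which uses the proton gradient to make mitochondrial NADPH from NADH (ENSMUSG00000025453, chromosome 13, 119335448 to 119408997), also rose in ETOH-WT livers. Nnt had 35.5, 29.1 and 31.9 FPKM in ETOH-WT livers, against 20.1, 20.4 and 23.0 FPKM in PF-WT livers, with no overlap. The log2 fold change was 0.58 (SE 0.10, adjusted p = 0.0191), and the adjusted p was 0.0746 when ETOH-WT mouse 3 was left out, 0.0524 when PF-WT mouse 1 and 0.0897 when PF-WT mouse 2 was left out. The C57BL/6J substrain, whose genome is the GRCm38 reference, carries a deletion within Nnt, and the labels name the strain C57Bl/6 without a substrain. Which version of the gene these mice carry was not tested, and the value stands for reads on the annotated exons. GENCODE vM21 holds a second protein-coding model named Nnt, whose 3339 exonic bases all lie within the 7037 of the row used here.

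Ratios of paired enzymes and subunits within a liver do not depend on the scaling of the library. Of 14 such pairs, chosen with the values known and therefore not tested, 6 ratios were higher and 1 was lower in all ETOH-WT than in all PF-WT livers, and 7 overlapped. How often other pairs of genes do so was not computed. Single genes did not overlap in 29.1% of cases, and the pairs with Idh2, Gpd1 or Pck2 hold a called member. The ratio of Idh2 to Idh1, its cytosolic counterpart, was 0.787, 0.494 and 0.635 in ETOH-WT livers, against 0.231, 0.210 and 0.243 in PF-WT livers. That of Suclg2 to Sucla2 was 1.497, 1.40 and 1.47 in ETOH-WT livers, against 0.868, 0.912 and 1.08 in PF-WT livers. So the mRNA of the GTP-forming subunit exceeded that of the ATP-forming subunit in each ETOH-WT liver and in PF-WT mouse 3, and was below it in PF-WT mice 1 and 2. The ratio of Mdh2 to Mdh1 averaged 0.562 ± 0.00757 in ETOH-WT and 0.428 ± 0.0166 in PF-WT livers. The ratio of Gpd1 to Gpd2 averaged 17.02 ± 0.839 and 10.1 ± 1.72, and that of Pdk1 to Pdk2 averaged 0.572 ± 0.0612 and 0.842 ± 0.0952, in ETOH-WT and PF-WT livers. Pairs of subunits within the NADH-making isocitrate dehydrogenase (Idh3a and Idh3g to Idh3b) and within the pyruvate carrier (Mpc1 to Mpc2) overlapped. The ratio of Pdha1 to Pdhb, the subunits of the decarboxylase, did not, at 0.561, 0.639 and 0.634 in ETOH-WT livers, against 0.503, 0.472 and 0.540 in PF-WT livers. The ratio of Pck2, low in all livers, to the cytosolic Pck1 did not overlap either. It was 0.00232, 0.00364 and 0.00202 in ETOH-WT livers, against 0.00159, 0.00191 and 0.00154 in PF-WT livers.

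**Figure D4:**
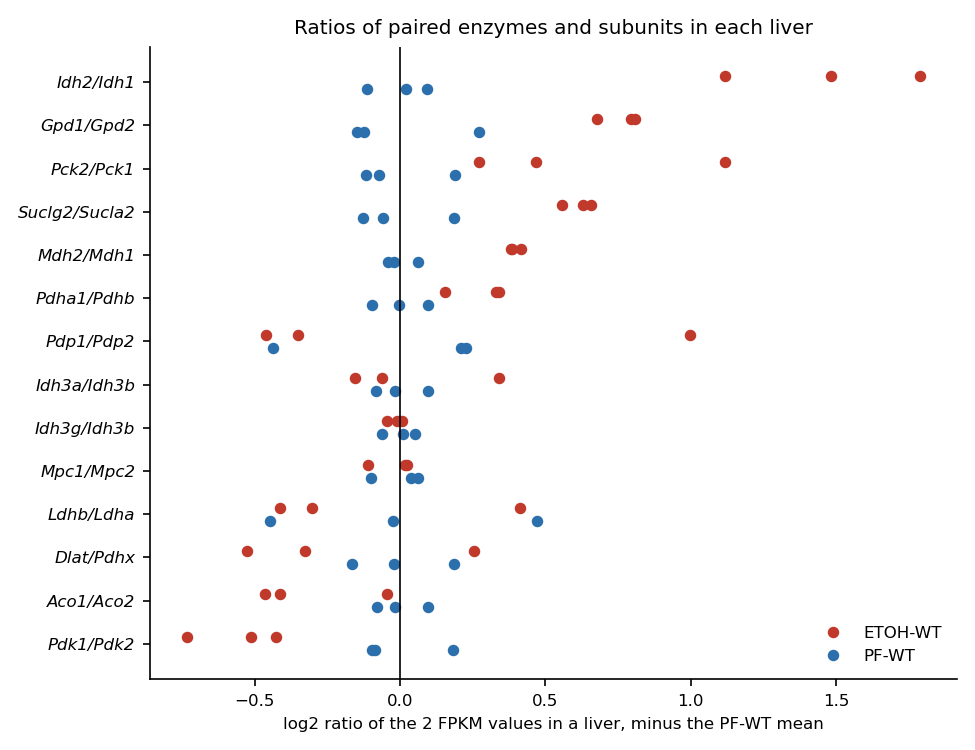
Log2 ratio of both FPKM values of a pair in each liver, minus the PF-WT mean of that pair (x axis), with ETOH-WT livers in red above PF-WT livers in blue. The pair of Idh2 and Idh1 lies farthest from the PF-WT livers on the higher side, and that of Pdk1 and Pdk2 is the one without overlap on the lower side.

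Of 62 tested genes that work next to these members, 2 were higher, 4 were lower and 56 did not pass in ETOH-WT livers, so that 9.68% were called against 6.64% of all genes. The cytosolic NADP-dependent isocitrate dehydrogenase Idh1 fell, at 200.3 ± 24.9 FPKM in ETOH-WT and 307 ± 24.7 FPKM in PF-WT livers (-0.62 ± 0.12 SE on the log2 scale, adjusted p = 0.0228). Acly, which splits exported citrate, fell to 63.6 ± 22.6 FPKM in ETOH-WT livers, against 304 ± 106 FPKM in PF-WT livers (-2.24 on the log2 scale, adjusted p = 0.0125). Me1, the cytosolic malic enzyme, had 57.8, 59.2 and 60.2 FPKM in ETOH-WT livers, against a wide 85.3, 152 and 234 FPKM in PF-WT livers (-1.28 on the log2 scale, adjusted p = 0.0472). With these, 3 of 5 tested genes of malic enzymes, citrate export and cytosolic isocitrate dehydrogenase were lower, against 2.67% of all genes. The related lists were chosen with earlier results of these data known. None of the 9 genes of the mitochondrial aconitase and of succinate dehydrogenase and its assembly passed, and none of the 5 genes of the malate-aspartate shuttle. Of these, Got1, the cytosolic aspartate aminotransferase, had 122, 116 and 79.8 FPKM in ETOH-WT livers, against 136, 205 and 256 FPKM in PF-WT livers, without overlap (-0.88 ± 0.24 SE on the log2 scale, adjusted p = 0.0711). None of 9 genes of pyruvate entry and anaplerosis passed, among them the kinase Pdk4 (adjusted p = 0.906) and the carboxylase Pcx (adjusted p = 0.189). Of 8 genes of monocarboxylate transport and 2-hydroxyglutarate, 3 passed (37.5%), against 6.64% of all genes. The transporter Slc16a7 rose, at 77.1 ± 3.48 FPKM in ETOH-WT and 41.4 ± 10.1 FPKM in PF-WT livers (log2 fold change 0.91, adjusted p = 0.0175), as did Bsg, a chaperone of such transporters (0.53, adjusted p = 0.0151). Slc16a11, another member of the transporter family, fell by 0.56 on the log2 scale (adjusted p = 0.0270).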

How the data were processed

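Livers of 3 ETOH-WT and 3 PF-WT mice were sequenced. The authors deposited 1 table with 1 column of FPKM per library, and this unit was inferred from the values. The authors aligned reads to GRCm38 with STAR 2.5.2b per their methods, while TopHat2 2.0.11, cutadapt and HTSeq (0.11.2 and 1.6.3) stand in the submitters' processing notes. Which program made the FPKM is not stated there. Groups and replicates came from the labels, whose code shared within a diet cannot be told apart from the diet.

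Values were transformed to log2(FPKM + 1). Rows averaging 0.5 FPKM or more were fitted with limma 3.58.1 in R 4.3.3 (eBayes with a variance trend, diet alone in the model, with 4 residual degrees of freedom), two-sided, with Benjamini-Hochberg adjustment over all 11346 rows. The table holds no counts, so no count model was run. The smallest exact permutation p for 3 mice against 3 is 0.1, so none was computed. The fit was tested on simulated data. Python 3.11.15 was used for ratios, annotation (GENCODE vM21) and figures. In this annotation 28 of the 34 members have both ends of the table, whose starts were turned into 1-based positions.

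All members are named, with values per liver for those called and the 6 others with the smallest p. Of related genes, up to 3 called in each direction per list are named, while Pdk4, Pcx, Got1 and the markers were named after their values were seen. The members and lists were chosen with earlier results of these data known. Alternatives were other pseudocounts (0.1 and 2), no minimum or a minimum of 2 FPKM, median-ratio scaling, quantile normalization, no variance trend, array weights, a replicate block and leaving out each library.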

Additional observations from a re-analysis of the deposited data

How the results depend on the processing

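Under each of the 15 alternatives the 5 called members kept their direction, and Gpd1 stayed past the threshold under all of them. The count of 4 higher members was 7 with array weights and 1 to 3 when 1 liver was left out, and 3 without a minimum and with the replicate block. The 1 lower member became 2 with quantile normalization, 5 with array weights and 0 to 3 when 1 liver was left out. Fewest were higher without PF-WT mouse 2 (1), and none was lower without PF-WT mouse 2 or ETOH-WT mouse 3 (0 each, limma), where Cs missed the threshold. Of all genes 6.64% were called (450 higher and 303 lower), against 20.0% with array weights, 253 higher and 201 lower genes with the replicate block, and 1.40% without PF-WT mouse 2 to 5.69% without ETOH-WT mouse 2 when a liver was left out. The median log2 fold change of the members ranged from -0.01 to 0.05. The adjusted p of Pck2 was 0.0531 without a minimum and 0.0521 with the replicate block. Across all genes, livers with the same replicate number did not deviate together (correlations -0.0341 to -0.0105). Whether particular genes are paired by these numbers was not tested. The replicate block changed no other call among the members. Low levels limit the precision for Pck2, Ldhb, Pdp1 and Pdk3, and the depth behind them is unknown.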

Other observations

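Genes that attach lipoate to Dlat, Dlst and Pdhx, or that supply it, did not pass limma in any of 7 tested cases, with a median log2 fold change of 0.01. Lias, the lipoate synthase, was at 15.6 ± 1.51 FPKM in ETOH-WT and 15.5 ± 0.532 FPKM in PF-WT livers (SD, n = 3 mice each, limma adjusted p = 0.971). Nfs1, the cysteine desulfurase of iron-sulfur cluster assembly, was at 31.5 ± 1.247 and 26.9 ± 0.303 FPKM in ETOH-WT and PF-WT livers without overlap, but did not pass (limma adjusted p = 0.139). Of 8 tested genes of related 2-oxoacid dehydrogenases and the glycine cleavage system, none passed, with a median of -0.18. Bckdk, the kinase of the branched-chain complex, had an interval of 0.10 to 0.77 around a log2 fold change of 0.44 (limma adjusted p = 0.116). None of 11 genes of NAD supply passed, with a median of 0.10. Nmrk1, a nicotinamide riboside kinase, was at 25.6 ± 7.80 and 16.9 ± 2.73 FPKM in ETOH-WT and PF-WT livers (limma adjusted p = 0.164). Nadk, the cytosolic NAD kinase, was at 116 ± 7.32 and 104.6 ± 2.81 FPKM (limma adjusted p = 0.331). These lists were chosen with earlier results known, and the genes named from them were picked after their values were seen.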
